A study of Mus musculus with 8 samples.

Results

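The replication-dependent histone genes were examined by RNA-seq in sympathetic ganglia of mouse embryos with reduced *Isl1*, the LIM-homeodomain transcription factor of developing sympathetic neurons. They were chosen by name alone, as all symbols that begin with Hist, a cluster number and h, and were grouped into the linker histone H1 and the core histones H2A, H2B, H3 and H4. The 2 expression tables held 32 of these genes among 14189 genes in all, with 31 of 13506 genes at E11.5 and 21 of 13413 genes at E14.5.

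At E11.5, *Isl1* CKO embryos (Wnt1-Cre;Isl1 f/f) were compared with control embryos (Wnt1-Cre;Isl1+/+), and both carried the Rosa26-tdTomato reporter, which guided the dissection. Wnt1-Cre recombines in neural crest derivatives, so cells of other origin in the ganglia kept *Isl1*. At E14.5, *Isl1* hypomorphic embryos (Isl1 f-neo/f-neo), which carry a neo cassette in the gene and no Cre, were compared with wildtype embryos. Each genotype had 2 libraries, each from ganglia pooled over about 10 embryos by the labels and up to 20 by the study's methods, but the tables give 1 FPKM value per gene and genotype (fragments per kilobase of transcript, scaled to all mapped fragments), which combines them. There is therefore no replicate spread, no depth and no test behind any difference given here, and "higher" and "lower" compare 2 pooled values. The level of *Isl1* itself was 132.6 FPKM in the E11.5 controls and 40.01 in the CKO, and 162.1 FPKM in the E14.5 wildtype and 83.1 in the hypomorph. The sympathetic markers *Phox2a*, *Hand2*, *Gata3*, *Th* and *Dbh* were listed at both stages.

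Core histones form the protein spool of the nucleosome, and H1 binds the DNA between spools. Cells make most of this protein in S phase from genes that lie in clusters in many near-identical copies. Their mRNAs usually lack a poly(A) tail and end instead just after a short stem-loop that is bound by SLBP, the stem-loop binding protein. Some clustered histone genes also make a longer, polyadenylated mRNA. The libraries were prepared from RNA caught on oligo(dT) beads, so the levels below cover mainly the polyadenylated part and are a lower bound for histone mRNA.

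The stem-loop marks which of these genes can end without a poly(A) tail, and it is shown here for the members on which the results turn. Each line gives 26 bases of the transcribed strand, 5′ to 3′, from the mm9 genome, with both arms of the stem in capitals and the loop and flanks in lower case.
*Hist3h2ba* (H2B; chr11:58762846-58762871, plus strand): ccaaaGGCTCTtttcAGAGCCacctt
*Hist3h2a* (H2A; chr11:58768669-58768694, plus strand): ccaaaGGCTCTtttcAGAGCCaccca
*Hist1h1c* (H1; chr13:23831376-23831401, plus strand): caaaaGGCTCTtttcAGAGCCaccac
*Hist1h2bc* (H2B; chr13:23776511-23776536, plus strand): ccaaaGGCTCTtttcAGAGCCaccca
*Hist1h4i* (H4; chr13:22132830-22132855, minus strand): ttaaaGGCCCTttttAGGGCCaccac
*Hist1h3c* (H3; chr13:23836911-23836936, minus strand): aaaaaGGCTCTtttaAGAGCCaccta
*Hist1h2bk* (H2B; chr13:22128164-22128189, plus strand): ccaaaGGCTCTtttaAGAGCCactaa
*Hist1h4b* (H4; chr13:23849230-23849255, plus strand): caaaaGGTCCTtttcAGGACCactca
*Hist1h4d* (H4; chr13:23673814-23673839, plus strand): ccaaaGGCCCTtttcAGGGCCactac
*Hist4h4* (H4; chr6:136752514-136752539, minus strand): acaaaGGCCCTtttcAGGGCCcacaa
The H1, H2A, H2B and H3 genes shown share the arms GGCTCT and AGAGCC, whereas the H4 genes carry GGCCCT and AGGGCC or GGTCCT and AGGACC. In each the arms are complementary over their whole length, as the search required.

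The search took any stem of 6 pairs that begins with GG and closes a loop of 4 bases, within 150 bases after the stop codon. It found a stem-loop in 61 of the 67 protein-coding histone genes of the mm9 annotation (91.04%) and in 0.43% of 21863 other protein-coding genes. Of the 32 genes in the tables, 30 had one, and none was found in *Hist2h2bb* and *Hist2h2be*. The search used the longest annotated transcript with a stop codon. For *Hist2h2bb* that transcript has 2 exons and a coding region of 360 bases, against 378 in *Hist2h2be*, so other stop codons of the gene were not searched. The most common form, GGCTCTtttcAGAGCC, was held by 37 of the annotated histone genes. Annotated histone mRNAs ran for a median of 89 bases past the stop codon, against 692 bases in the other genes, and the poly(A) signal AATAAA lay in the last 40 bases of 16.4% and 54.4%, respectively.

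The annotation holds 70 histone genes of these names, 3 of them pseudogenes, and 38 were in neither table. The tables list only genes that reached 1 FPKM in at least 1 genotype. An unlisted symbol may have been below that level or may carry another name in the authors' annotation, so no level is given for it. Of 6 annotated H1 genes 3 were listed at either stage, of 20 H2A genes 6, of 19 H2B genes 8, of 12 H3 genes 7, and of 13 H4 genes 8. By cluster, 25 of 56 genes of the Hist1 cluster on chromosome 13 were listed, 4 of 10 of Hist2 on chromosome 3, 2 of 3 of Hist3 on chromosome 11, and *Hist4h4* alone on chromosome 6. An annotated mRNA that runs more than 150 bases past the stop codon was held by 12 of the 32 listed genes and by 10 of 35 unlisted coding genes.

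Because many copies are nearly the same, reads of 90 bases cannot always be assigned to 1 of them. The share of 90-base windows of a member's transcript found exactly once in mm9 had a median of 65.6% in the listed genes and 53.85% in the unlisted ones. It was 99.9% for *Hist3h2a*, 91.5% for *Hist3h2ba*, 94.3% for *Hist1h1c*, 75.2% for *Hist1h4i* and 57.2% for *Hist1h2bc*, but 29.0% for *Hist1h2bk* and 20.2% for *Hist1h2ag*. Within the coding region alone, *Hist1h2bc* was unique in only 5.2% of windows. Values of members with low shares are therefore uncertain, either as to which copy they describe or, where only uniquely mapped reads were kept, in being too low.

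Polyadenylated histone mRNA was dominated by 5 members, and by the Hist3 cluster among them. *Hist3h2ba*, which encodes an H2B, stood at 42.9 FPKM in control and 95.8 in CKO ganglia at E11.5, and at 57.4 FPKM in wildtype and 53.3 in hypomorphic ganglia at E14.5. The CKO value is the highest. The stages were normalized separately, so such a ranking across them is a description only. *Hist3h2a*, the H2A gene beside it, stood at 29.0 and 49.8 FPKM at E11.5 and at 53.6 and 48.3 FPKM at E14.5. Its E11.5 control value is the lowest, with the same limit. This pair made up 51.9% of the summed histone FPKM in control, 57.6% in CKO, 71.0% in wildtype and 65.1% in hypomorphic ganglia.

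*Hist1h1c*, a linker histone gene with an annotated mRNA of 879 bases past the stop codon, stood at 9.45 and 21.8 FPKM in control and CKO ganglia and at 8.11 and 10.0 FPKM in wildtype and hypomorphic ganglia. *Hist1h2bc*, an H2B gene, stood at 9.09 and 20.7 FPKM at E11.5 and at 5.92 and 7.18 FPKM at E14.5. Its annotated transcript has 2 exons and splices past the stem-loop shown above. *Hist1h4i*, the most abundant H4 gene, stood at 6.24 and 13.3 FPKM at E11.5 and at 4.64 and 6.48 FPKM at E14.5. In all 3 the CKO value is the highest of the 4, again across stages that were normalized separately. The other 26 members at E11.5 and 16 at E14.5 had no value of 5 FPKM or more.

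**Figure D1:**
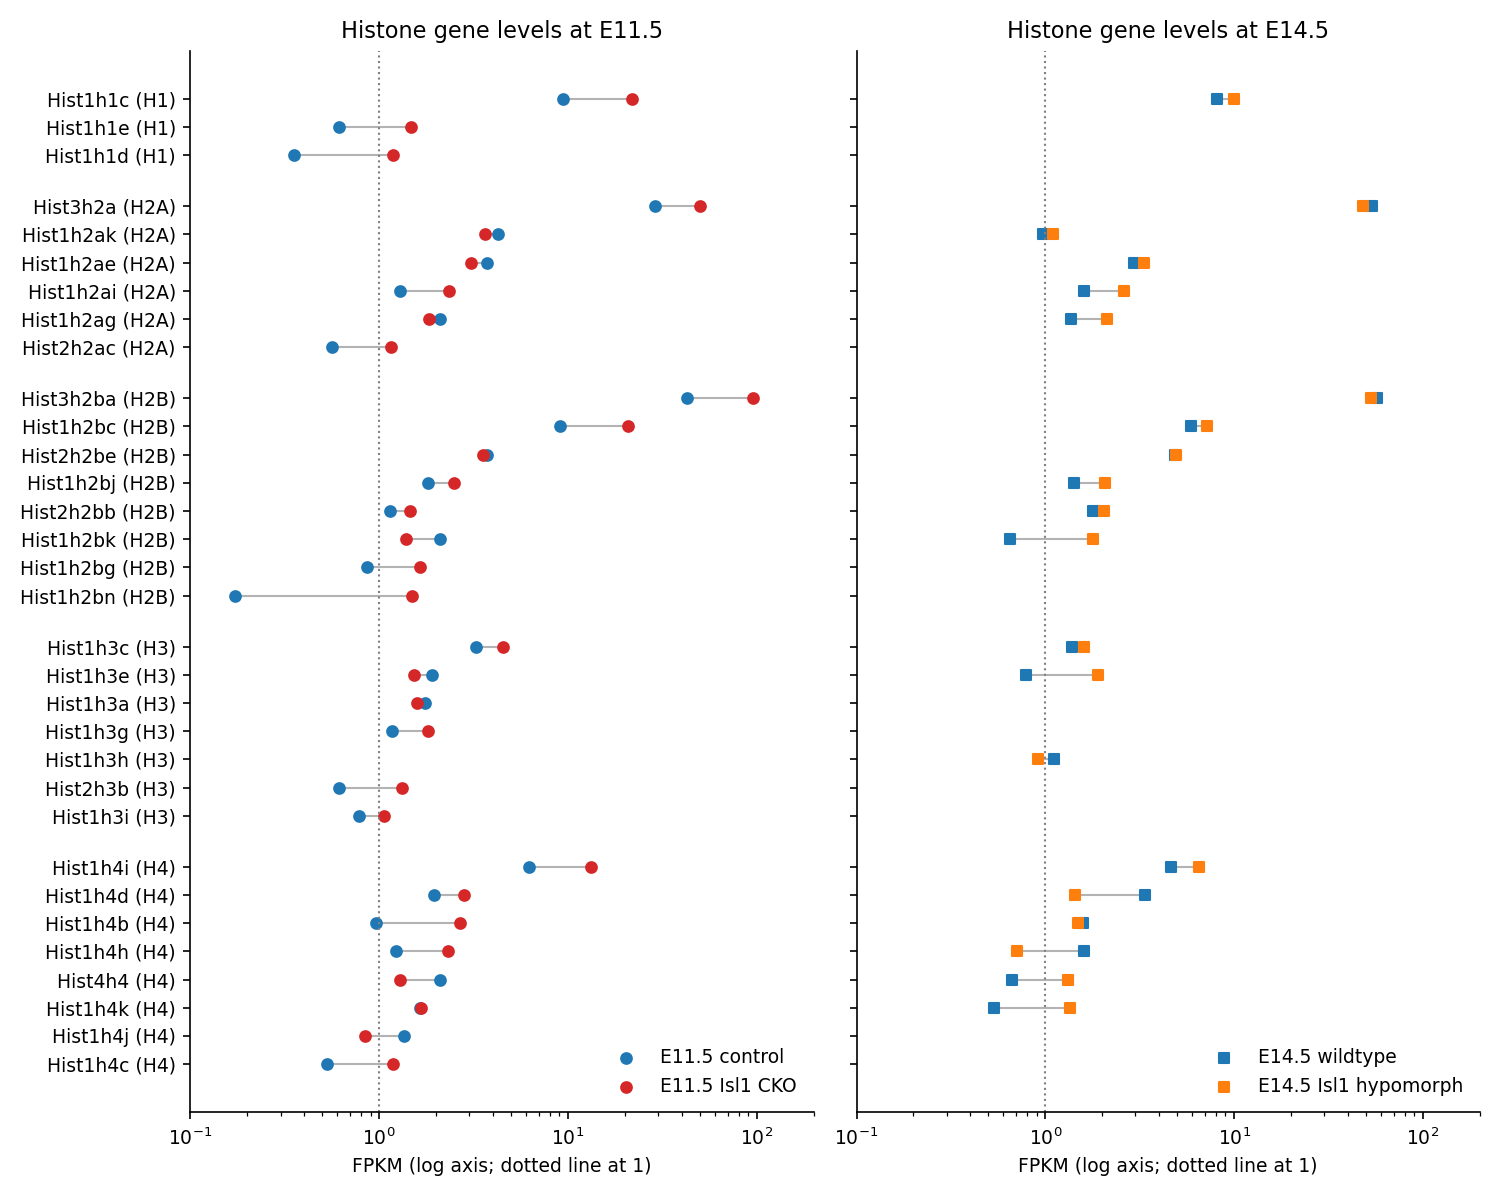
FPKM on a log axis of each histone gene, grouped by class, in control (blue circles) and CKO ganglia (red circles) at E11.5 and in wildtype (blue squares) and hypomorphic ganglia (orange squares) at E14.5. Each point is 1 pooled value of 2 libraries, grey lines join the genotypes, and a missing pair of points is a gene that the table does not list. The 5 abundant members sit to the right at both stages, and most others lie between 1 and 5 FPKM.

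The first comparison asked how histone mRNA stood in CKO ganglia at E11.5, when the sympathetic precursors still divide. The abundant histone genes stood higher in CKO ganglia, while the low ones were divided. Of 31 members, 16 were at least 1.5-fold higher, 2 were at least 1.5-fold lower and the median log2 ratio was 0.59, where ratios are of FPKM + 0.1. Among all 13506 genes, 18.9% were that much higher and 12.9% lower, with a median of 0.05. All 5 abundant members were higher, with log2 ratios of 1.2 for *Hist1h1c*, 1.18 for *Hist1h2bc*, 1.16 for *Hist3h2ba*, 1.07 for *Hist1h4i* and 0.78 for *Hist3h2a*.

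Genes of low level were past 1.5-fold more often in general, so the remaining 26 members, all with a mean under 5 FPKM, are set beside genes of that level. Of these members 11 were higher and 2 lower, against 31.6% and 14.7% of 3708 genes. The minimum for listing also acts here. In 9 members the control value was below 1 FPKM, so the CKO value had to be the higher one, and in *Hist1h4j* the reverse held. Over the 21 members at 1 FPKM or more in both genotypes, 8 were higher and 1 was lower, with a median of 0.44, against 15.5% and 11.8% of 12442 genes under the same condition and a median of 0.03. These counts describe the listed members and do not support a direction for the family.

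All 3 listed linker histone genes were past 1.5-fold. *Hist1h1e* stood at 0.611 and 1.48 FPKM (log2 ratio 1.15) and *Hist1h1d* at 0.354 and 1.18 FPKM (log2 ratio 1.49), each with a control value under the listing minimum.

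Among the 6 H2A genes, *Hist3h2a*, *Hist1h2ai* (1.29 and 2.34 FPKM) and *Hist2h2ac* (0.565 and 1.15 FPKM) were higher in CKO ganglia. *Hist1h2ak* (4.23 and 3.63 FPKM), *Hist1h2ae* (3.72 and 3.05 FPKM) and *Hist1h2ag* (2.09 and 1.82 FPKM) stayed within 1.5-fold, with log2 ratios from -0.28 to -0.19. Without *Hist3h2a*, the summed H2A level was thus 11.9 FPKM in control and 12.0 in CKO ganglia.

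Among the 8 H2B genes, *Hist3h2ba*, *Hist1h2bc*, *Hist1h2bg* (0.862 and 1.65 FPKM) and *Hist1h2bn* (0.172 and 1.497 FPKM) were higher. The log2 ratio of *Hist1h2bn*, 2.56, was the highest of all members and rests on a control value far under the listing minimum. *Hist2h2be*, which has no stem-loop by the search above and whose annotated mRNA runs 2192 bases past the stop codon, stood at 3.72 and 3.53 FPKM. *Hist2h2bb*, the other member in which the search found none, stood at 1.14 and 1.46 FPKM, and *Hist1h2bj* at 1.80 and 2.47 FPKM. *Hist1h2bk* stood at 2.11 and 1.38 FPKM, a log2 ratio of -0.57 just short of 1.5-fold.

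Of the 6 H3 genes, *Hist2h3b* (0.610 and 1.32 FPKM) and *Hist1h3g* (1.17 and 1.81 FPKM) were higher. *Hist1h3c* (3.25 and 4.501 FPKM), *Hist1h3e* (1.91 and 1.53 FPKM), *Hist1h3a* (1.74 and 1.58 FPKM) and *Hist1h3i* (0.784 and 1.06 FPKM) stayed within 1.5-fold. The class sum went from 9.47 to 11.8 FPKM.

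The 8 H4 genes were the most divided. *Hist1h4i*, *Hist1h4b* (0.965 and 2.69 FPKM), *Hist1h4h* (1.23 and 2.30 FPKM) and *Hist1h4c* (0.529 and 1.19 FPKM) were higher. *Hist4h4* (2.09 and 1.29 FPKM) and *Hist1h4j* (1.35 and 0.839 FPKM) were lower, the only 2 members below the 1.5-fold line at this stage. *Hist1h4d* stood at 1.94 and 2.82 FPKM and *Hist1h4k* at 1.64 and 1.65 FPKM.

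Summed over all members, the level was 138.5 FPKM in control and 252.7 FPKM in CKO ganglia, 1.82-fold higher. The class sums were 2.35-fold higher for H1, 2.08-fold for H2B, 1.63-fold for H4, 1.51-fold for H2A and 1.25-fold for H3. As a share of all summed FPKM, the members together went from 290.9 ppm in control to 409.4 ppm in CKO ganglia. By that share H1, H2A, H2B and H4 were also higher, but H3 was slightly lower, at 19.9 and 19.1 ppm. Without the Hist3 pair, the other 29 members went from 66.7 to 107.1 FPKM, 1.61-fold. The 12 members with more than 150 annotated bases past the stop codon had a median log2 ratio of 0.84 and 8 higher members. The 19 others had a median of 0.46, with 8 higher and 2 lower members. Among all genes 18.9% were that much higher and 12.9% lower. The listing minimum fixed the direction of *Hist1h1d* and *Hist1h2bg* among the 12. Among the 19 it fixed that of *Hist1h1e*, *Hist1h2bn*, *Hist1h4b*, *Hist1h4c*, *Hist2h2ac* and *Hist2h3b*, and of the lower *Hist1h4j*. It also fixed that of *Hist1h3i*, which stayed within 1.5-fold. The split is therefore given without a reading.

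Levels of other contents of the E11.5 libraries are given beside this result, where 18.9% of all genes were at least 1.5-fold higher and 12.9% lower. The 10 listed erythroid genes summed to 10884 FPKM in control and 69048 FPKM in CKO ganglia, 2.29% and 11.2% of each table's total, with 9 genes higher and *Hbb-y* listed at 0 in the CKO. Genes of glia and neural crest progenitors went from 169.0 to 374.6 FPKM with 6 of 6 higher, and mesenchymal genes from 556.3 to 965.6 FPKM with 4 of 6 higher. Macrophage genes went from 29.1 to 64.3 FPKM with 4 of 5 higher, and endothelial genes from 59.7 to 76.5 FPKM with 1 of 6 higher. That endothelial count is near the share of all genes, and the endothelial sum was 0.0125% of all summed FPKM in control and 0.0124% in CKO ganglia. Among sympathetic genes, *Gata3* stood at 79.1 and 32.4 FPKM, *Hand2* at 297.9 and 193.2, *Phox2a* at 223.3 and 173.6, *Th* at 183.6 and 145.0, and *Dbh* at 543.3 and 594.1 FPKM. In such bulk samples, fewer cells of a type and less RNA per cell cannot be told apart, and the part of these other cells in the histone result was not tested.

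With each table rescaled without erythroid, small RNA and mitochondrial genes, the median of all genes shifted from 0.05 to -0.19, and the median of the histone members from 0.59 to 0.36. The summed histone level was then 1.54-fold higher in the CKO, and *Hist3h2a* came to a log2 ratio of 0.54, within 1.5-fold.

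**Figure D2:**
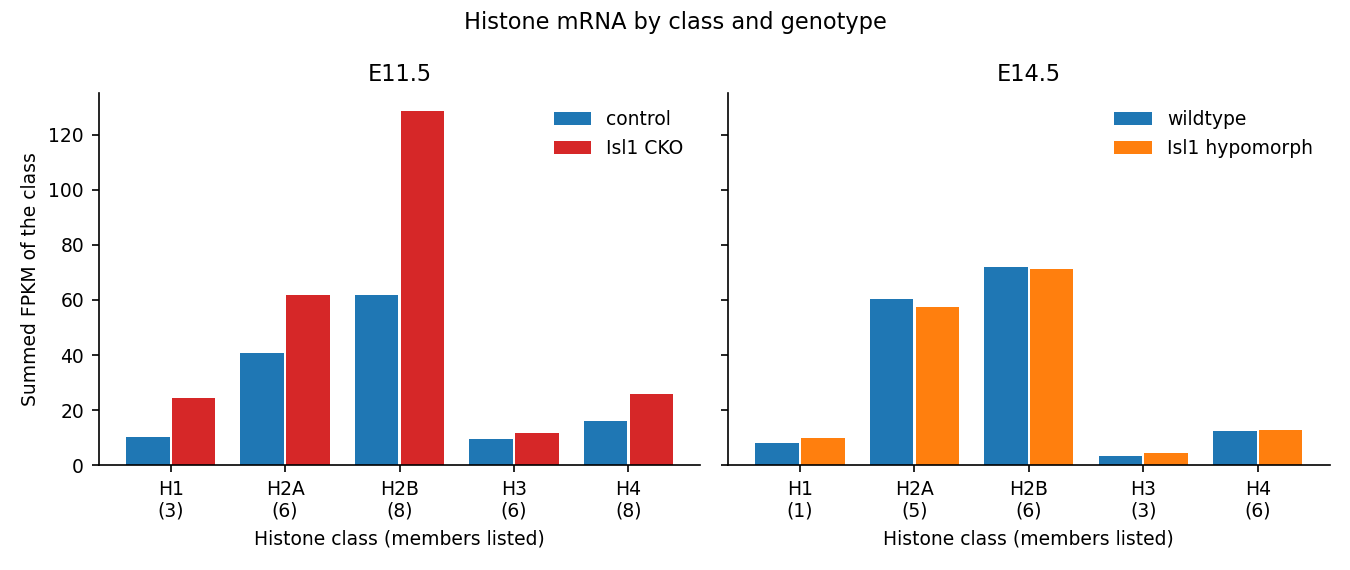
Summed FPKM of the listed members of each histone class in control and mutant ganglia at E11.5 (left) and E14.5 (right), with the number of members in parentheses. H2A and H2B carry most of the level in all 4 groups. The H2B sum reached 128.5 FPKM in CKO ganglia and lay between 61.8 and 72.0 FPKM in the other 3 groups. The stages were normalized separately.

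The second comparison asked the same of hypomorphic ganglia at E14.5. Part of the *Isl1* mRNA remained in both mutants, at 40.01 FPKM in the CKO and 83.1 FPKM in the hypomorph. The summed histone level was nearly the same in both genotypes, at 156.3 FPKM in wildtype and 156.1 FPKM in hypomorphic ganglia. Of 21 members, 6 were at least 1.5-fold higher in hypomorphic ganglia and 2 were lower, with a median log2 ratio of 0.20. Among all 13413 genes, 2.89% were that much higher and 2.12% lower, with a median of 0.00. All 8 of these members had a mean under 5 FPKM, where 5.77% and 3.93% of 3209 genes were past the line, and 4 of the 6 higher and 1 of the 2 lower had a value under 1 FPKM, which fixed their direction. Over the 14 members at 1 FPKM or more in both genotypes 2 were higher and 1 was lower, against 1.87% and 1.76% of 13021 genes.

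The 5 abundant members all stayed within 1.5-fold at this stage. Their log2 ratios were 0.47 for *Hist1h4i*, 0.30 for *Hist1h1c*, 0.27 for *Hist1h2bc*, -0.10 for *Hist3h2ba* and -0.15 for *Hist3h2a*. *Hist1h1c* was the only linker histone gene listed.

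The 6 higher members came from 4 classes but not from H1. They were *Hist1h2bk* (0.649 and 1.79 FPKM), *Hist1h4k* (0.536 and 1.35 FPKM), *Hist1h3e* (0.794 and 1.89 FPKM), *Hist4h4* (0.667 and 1.33 FPKM), *Hist1h2ai* (1.59 and 2.62 FPKM) and *Hist1h2ag* (1.37 and 2.13 FPKM). The 2 lower members were H4 genes, *Hist1h4d* (3.38 and 1.44 FPKM, log2 ratio -1.18) and *Hist1h4h* (1.61 and 0.707 FPKM, log2 ratio -1.08).

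Among the rest, *Hist2h2be* stood at 4.87 and 4.92 FPKM, the closest pair of values at this stage. *Hist1h2ae* (2.94 and 3.34 FPKM), *Hist1h2bj* (1.42 and 2.06 FPKM), *Hist2h2bb* (1.78 and 2.04 FPKM) and *Hist1h2ak* (0.971 and 1.10 FPKM) were slightly higher in the hypomorph, as was *Hist1h3c* (1.38 and 1.59 FPKM). *Hist1h4b* (1.57 and 1.49 FPKM) was slightly lower, as was *Hist1h3h* (1.12 and 0.916 FPKM), the only member listed at E14.5 and not at E11.5. The H2A sum was 60.5 and 57.5 FPKM, the H2B sum 72.0 and 71.3, the H3 sum 3.29 and 4.40, and the H4 sum 12.4 and 12.8. Beside these, erythroid genes summed to 5637 and 6851 FPKM, glial and neural crest genes to 361.0 and 404.8 FPKM, mesenchymal genes to 1330 and 1472 FPKM, endothelial genes to 73.8 and 103.9 FPKM, and macrophage genes to 34.2 and 39.8 FPKM.

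**Figure D3:**
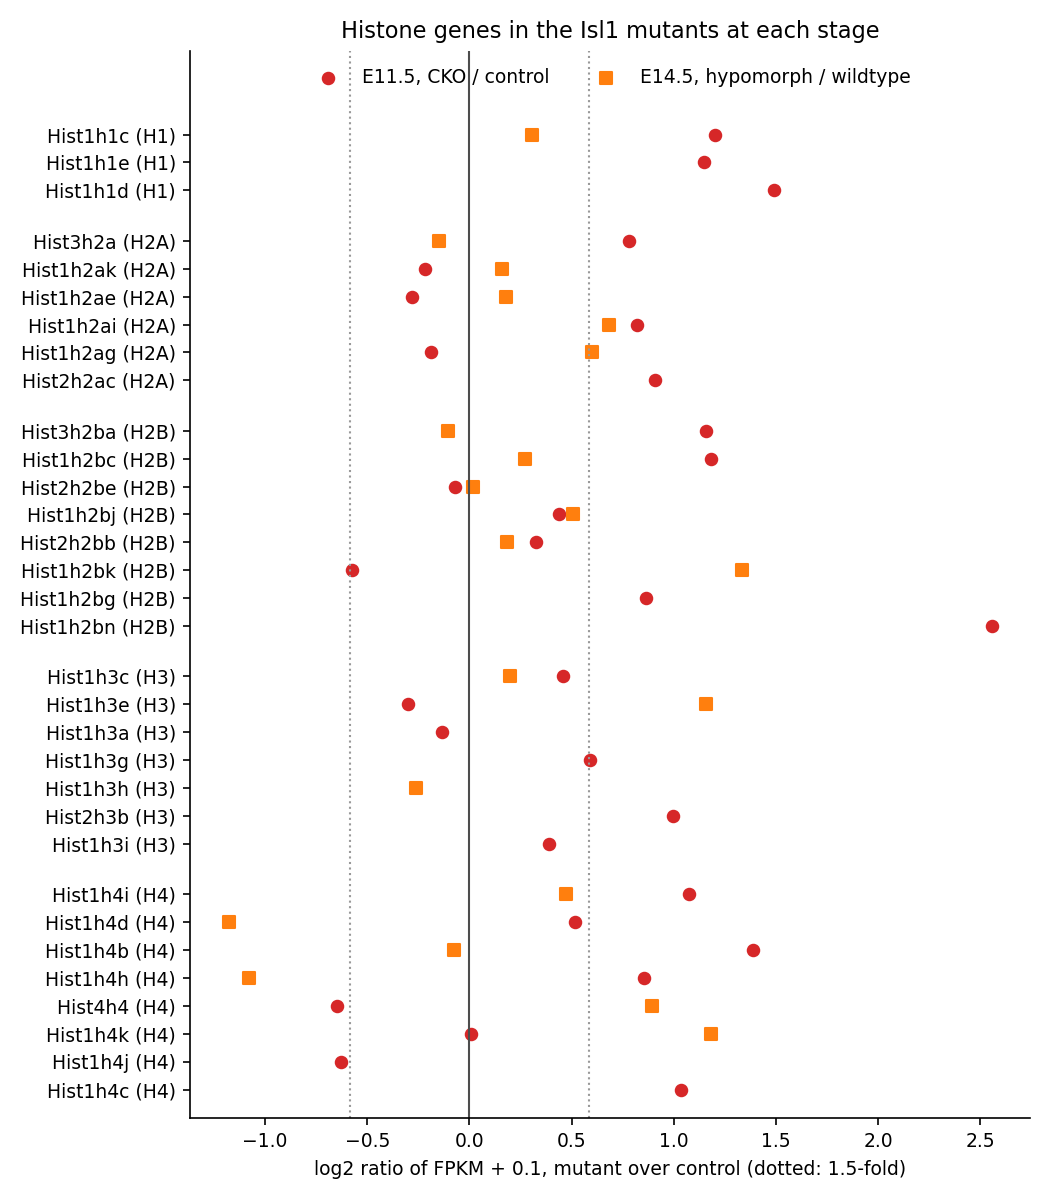
Log2 ratio of FPKM + 0.1 of each histone gene in the CKO over the control at E11.5 (red circles) and in the hypomorph over the wildtype at E14.5 (orange squares), with dotted lines at 1.5-fold. The abundant members lie to the right of the line at E11.5 and between the lines at E14.5, and several low H4 genes lie on opposite sides of 0 at the 2 stages.

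Ratios of the members were then set side by side at the 2 stages, which share no samples. Of the 20 members listed at both, 8 were above 0 at both, 5 were above 0 only at E11.5, 7 only at E14.5, and 0 were below 0 at both. The opposite signs came to 60.0% of the members and 48.8% of all 12727 genes. The listing minimum fixed some of them, and over the 13 members at 1 FPKM or more in all 4 groups 6 had opposite signs (46.2%), against 49.2% of all genes under that condition. Only *Hist1h2ai* was at least 1.5-fold higher at both stages. *Hist1h4d*, at 1 FPKM or more in all 4 groups, had log2 ratios of 0.51 at E11.5 and -1.18 at E14.5. The rest of those 6 included the Hist3 pair, *Hist3h2a* (0.78 and -0.15) and *Hist3h2ba* (1.16 and -0.10). The others were *Hist1h2ae* (-0.28 and 0.18), *Hist1h2ag* (-0.19 and 0.60) and *Hist2h2be* (-0.07 and 0.02). *Hist1h4h*, *Hist4h4*, *Hist1h2bk* and *Hist1h3e* also changed sign, but each was listed at E14.5 only through its higher genotype, so its sign there was fixed. The difference between stages was not tested, and the mutants differ in allele as well as in age.

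Levels in the 2 controls were set side by side for the change with age, with the limits that the tables were normalized separately and that only the E11.5 controls carry Wnt1-Cre and the reporter. The study's methods describe the use of uniquely mapped reads for RNA-seq, but the submitters' notes name other versions, and whether both tables followed the methods was not checked. From E11.5 control to E14.5 wildtype ganglia, 4 of 20 members were at least 1.5-fold higher and 7 lower, with a median log2 ratio of -0.33. Of the 12727 genes that both stages list, 29.7% were higher and 12.7% lower, and their median was 0.24. Over the 14 members at 1 FPKM or more in both controls 3 were higher and 2 lower, and the median turned to 0.04, against 28.6% and 12.6% of 12288 genes and a median of 0.22. The Hist3 pair was higher at E14.5, with log2 ratios of 0.88 for *Hist3h2a* and 0.42 for *Hist3h2ba*, the latter within 1.5-fold. The other higher members past 1.5-fold were *Hist1h4d* (0.77), *Hist1h4b* (0.65) and *Hist2h2bb* (0.60). The lower members were *Hist1h2ak* (-2.02), *Hist1h2bk* (-1.56), *Hist4h4* (-1.51), *Hist1h4k* (-1.45), *Hist1h3c* (-1.18), *Hist1h3e* (-1.17) and *Hist1h2bc* (-0.61). The 11 members listed at E11.5 alone, *Hist1h1d*, *Hist1h1e*, *Hist2h2ac*, *Hist1h2bg*, *Hist1h2bn*, *Hist1h3a*, *Hist1h3g*, *Hist1h3i*, *Hist2h3b*, *Hist1h4c* and *Hist1h4j*, enter no comparison of the stages. Members with more than 150 annotated bases past the stop codon had a median of 0.04 over 10 genes, and the 10 others a median of -0.88. *Hist1h2ak*, *Hist1h2bk*, *Hist1h4k* and *Hist4h4* of these others, and *Hist1h3e* of the first, were under 1 FPKM in E14.5 wildtype ganglia. They were listed there only through the hypomorph.

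The share of unique windows is given beside the stage difference, and its part in it was not tested. The 4 members with at most 50% unique windows had log2 ratios from -1.56 to -0.57 with a median of -1.31, and the 16 with more had ratios from -2.02 to 0.88 with a median of 0.04. The lowest of the 16, *Hist1h2ak*, has 88.2% unique windows. *Hist1h2bk*, *Hist1h3e* and *Hist1h4k* of the first group and *Hist1h2ak* and *Hist4h4* of the second were under 1 FPKM in E14.5 wildtype ganglia. They were listed there only through the hypomorph, so both medians rest in part on values below the listing minimum. Replication-independent histone genes, some of which have processed copies elsewhere in the genome, included the largest stage differences of the lists other than the cell type markers. *H2afz* stood at 592.7 FPKM in E11.5 control and 21.5 FPKM in E14.5 wildtype ganglia with 50.5% unique windows, *H3f3a* at 950.5 and 87.3 FPKM with 74.7%, and *H3f3b* at 770.9 and 221.0 FPKM with 88.5%. *H2afy* and *H2afv*, whose windows were all unique, differed little, at 162.0 and 146.1 FPKM and at 41.2 and 51.5 FPKM. *Cenpa*, of the same list and also with all windows unique, was lower at E14.5, at 64.6 and 41.7 FPKM (log2 ratio -0.63). Genes with mostly unique windows also reached large differences, such as *Snrpf*, a subunit of the U7 particle, at 139.7 and 20.9 FPKM with 99.9%.

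**Figure D4:**
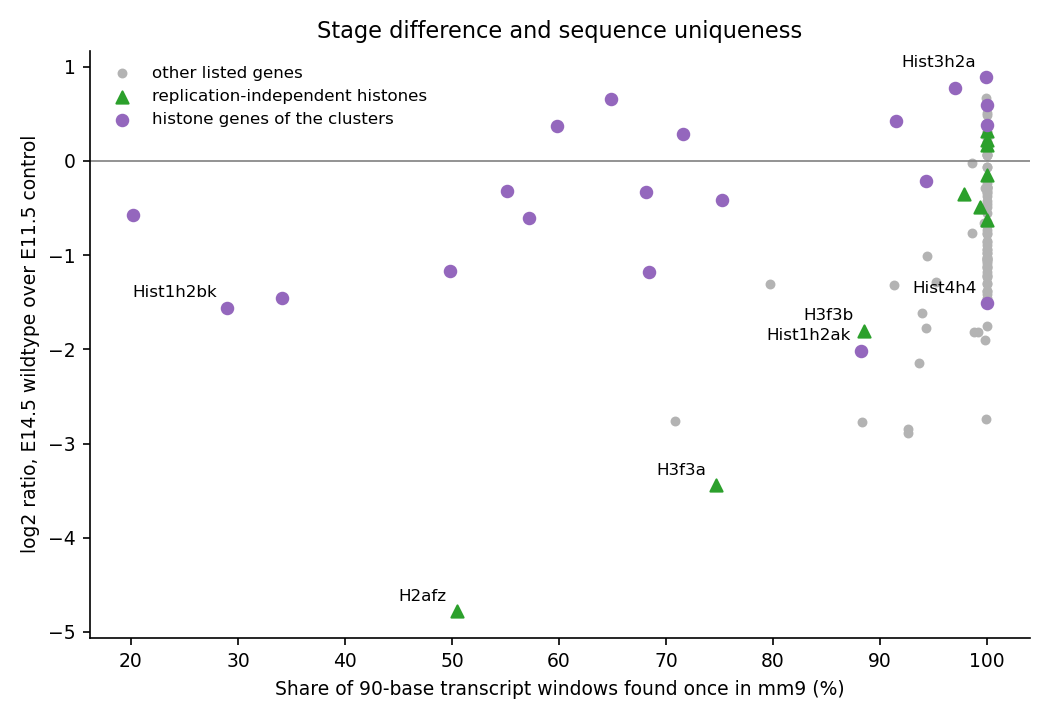
Log2 ratio of E14.5 wildtype over E11.5 control ganglia against the share of a transcript's 90-base windows found once in mm9, for histone genes of the clusters (purple circles), replication-independent histone genes (green triangles) and the genes of the other lists (grey points). *H2afz* and *H3f3a* lie lowest and left of most other genes, while *Hist4h4* is low although all of its windows are unique.

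The genes that serve histone supply were then set beside the histone genes. Their counts read against the shares of all genes above, 18.9% higher and 12.9% lower at E11.5 and 2.89% and 2.12% at E14.5. Of 30 S phase genes (replication and nucleotide synthesis), 21 were at least 1.5-fold lower in CKO ganglia and 0 higher, with a median log2 ratio of -0.72 and all 30 below 0. Examples are *Rrm2* (192.3 and 76.95 FPKM), the ribonucleotide reductase subunit, and *Uhrf1* (92.1 and 35.2 FPKM), which maintains DNA methylation. At E14.5, 9 of 30 were higher in hypomorphic ganglia and 0 lower, with a median of 0.55 and all 30 above 0. *Rrm2* then stood at 54.4 and 89.3 FPKM and *Hells*, a chromatin remodeler, at 15.96 and 26.9 FPKM.

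Of 11 genes for histone gene transcription, 5 were lower in CKO ganglia and 0 higher (median -0.38), and 2 were higher in hypomorphic ganglia and 0 lower (median 0.25). *Npat*, the coactivator of the histone clusters, stood at 12.0 and 9.63 FPKM at E11.5 and at 7.14 and 8.44 FPKM at E14.5. *Casp8ap2*, a component of the same nuclear bodies, stood at 18.8 and 9.42 FPKM at E11.5. *Pou2f1*, which binds the octamer ATTTGCAT, stood at 10.7 and 5.61 FPKM.

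For mRNA 3′ processing, 1 of 15 genes was higher in CKO ganglia and 0 lower (median -0.16), and 0 were past 1.5-fold at E14.5 (median 0.05). *Slbp* stood at 55.4 and 37.0 FPKM at E11.5, just short of 1.5-fold on this scale, and at 22.4 and 27.6 FPKM at E14.5. The higher gene was *Lsm10*, a subunit of the U7 particle that cuts histone mRNA, at 11.2 and 17.2 FPKM. Of 8 genes for histone mRNA decay, 1 was lower in CKO ganglia, the helicase *Upf1* at 28.0 and 18.6 FPKM (list median -0.39), and 0 were past the line at E14.5 (median 0.06). That count of 1 is near the background share.

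Of 23 histone chaperone genes, 8 were lower in CKO ganglia and 0 higher (median -0.42). *Nasp*, a carrier of free H3 and H4, stood at 197.9 and 102.3 FPKM, and *Chaf1a*, the large subunit of the CAF-1 complex that deposits histones at forks, at 29.7 and 15.2 FPKM. In hypomorphic ganglia 2 were higher and 0 lower (median 0.23), *Chaf1b* at 14.7 and 24.8 FPKM and *Asf1b* at 13.0 and 20.4 FPKM.

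Replication-independent histones are variants encoded outside the clusters, mostly by mRNA with a poly(A) tail, though *H2afx* also has a stem-loop by the search above. Their median was below 0 at E11.5. Of 11 listed, 1 was higher and 2 were lower in CKO ganglia (median -0.34), counts near or below the background shares. *H1f0*, a linker histone of cells that have stopped dividing, stood at 239.1 and 123.5 FPKM, the centromeric H3 *Cenpa* at 64.6 and 40.3 FPKM, and *H2afj* at 15.6 and 25.6 FPKM. At E14.5, 0 of 12 were past 1.5-fold (median 0.15). Among linker histone genes, *Hist1h1c* was thus higher and *H1f0* lower in the same CKO ganglia. With the tables rescaled as above, the E11.5 medians were -0.96 for S phase genes, -0.66 for chaperones and -0.58 for replication-independent histones, against 0.36 for the clustered histone genes. The last median includes the 9 members with a control value under 1 FPKM, which were listed only through the CKO.

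**Figure D5:**
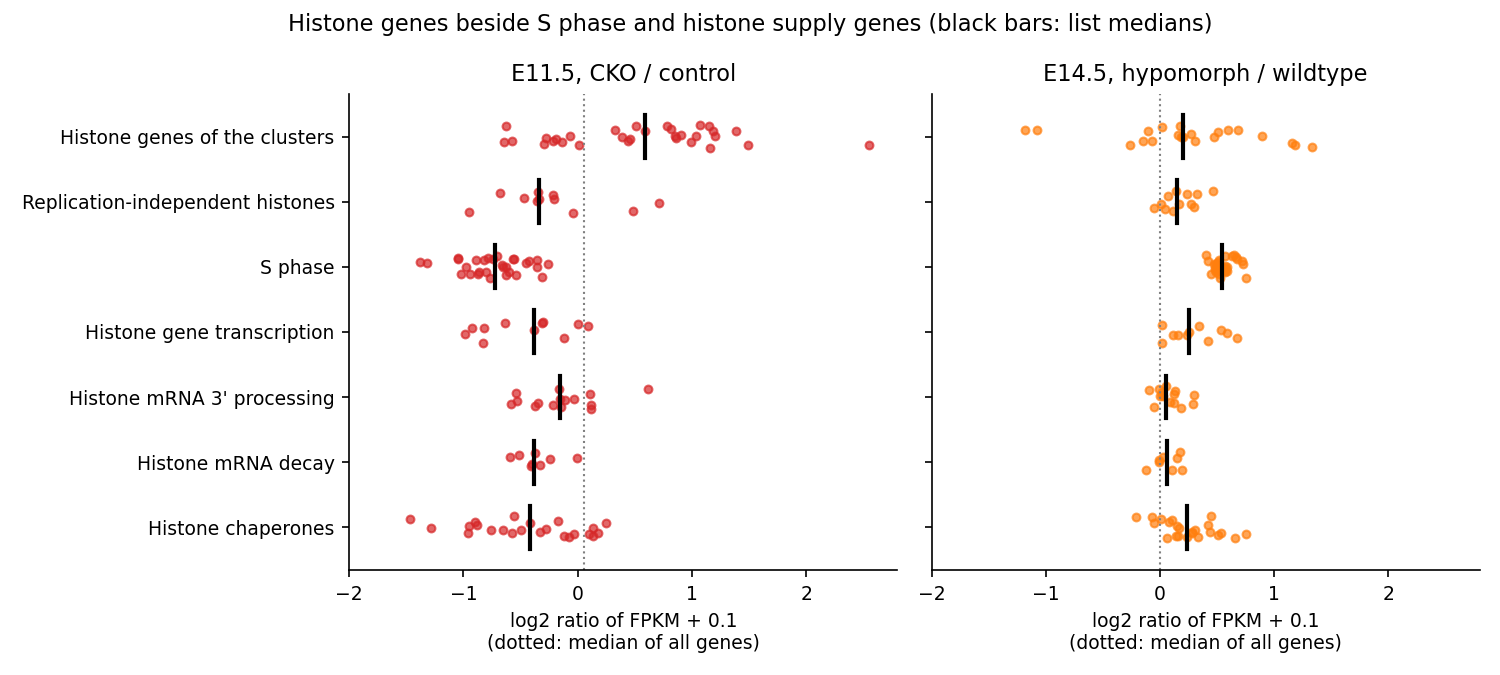
Log2 ratios of FPKM + 0.1, mutant over control, of the clustered histone genes and of the lists of genes for histone supply at E11.5 (left) and E14.5 (right). Each point is a gene, black bars are list medians and the dotted line is the median of all genes. At E11.5 the clustered histone genes have a median of 0.59 and S phase genes of -0.72, and at E14.5 these medians are 0.20 and 0.55. The 0.59 includes 9 members listed only through the CKO, and the median is 0.44 over the 21 at 1 FPKM or more in both genotypes.

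Promoters of the histone genes were searched for 3 motifs on both strands, from 250 bases before to 50 bases after the start in RefSeq (build GRCm38.p6), where 61 of 70 genes were matched by symbol or synonym. The CCAAT box was present in 85.2% of them and in 37.9% of 27025 promoters of all genes, and TATAAA in 57.4% and 14.2%. All 6 H1, 17 H2A, 16 H2B and 10 H3 promoters had CCAAT, but 3 of 12 H4 promoters did. The octamer ATTTGCAT was present in 7 H2A and 6 H2B promoters and in 0 of the other classes, against 1.8% of all promoters. These matches describe letters in the window and say nothing of binding in the ganglia.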

How the data were processed

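RNA-seq of sympathetic ganglia was analysed in 8 samples, 2 libraries for each of 4 groups. RNA was selected with oligo(dT) beads, converted with a SMARTer kit and sequenced as paired reads of 90 bases. FPKM was estimated by the authors, who aligned reads to mm9 with TopHat, by the methods kept uniquely mapped reads, and ran cuffdiff on both libraries of a genotype together. The submitters' processing notes name Bowtie, TopHat 1.3.1, Cuffdiff 1.3.0 and the fly build dm3, at odds with the mouse samples and with the versions in the methods. Deposited fold change and p-value columns hold the study's own comparisons and were not used. Depth is unknown.

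Log2 ratios of FPKM + 0.1 were computed, and 1.5-fold was counted, with no statistical test. Named genes were members with a mean of 5 FPKM or more, the 2 most abundant of each class, and the 5 steepest rises and falls of a stage at a mean of 1 FPKM or more. The other members are named to account for each. Of the other lists, genes past 1.5-fold that reached 10 FPKM in a group were eligible, and examples of these were chosen after their values were seen, as were *H2afz*, *H3f3a*, *H3f3b*, *H2afy*, *H2afv*, *Snrpf* and the sympathetic genes shown. *Slbp*, *Npat* and *Isl1* were always named. The members and lists were chosen with earlier results of these data known. Stem-loops, poly(A) signals and unique windows were computed on the NCBIM37 (mm9) genome with GENCODE vM1, and the steps were tested on simulated data. Alternatives were other pseudocounts, filters, fold thresholds and scalings, and members left out. Python 3.11.15, numpy 2.4.6, pandas 2.3.3 and matplotlib 3.10.9 were used. The summed level of the sympathetic marker list is not reported here.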

Additional observations from a re-analysis of the deposited data

Results flagged for a closer look

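*Hist1h4h* and *Hist4h4*, both H4 genes, had ratios past 1.5-fold in opposite directions in the 2 mutants. The log2 ratio of *Hist1h4h* was 0.86 in the CKO over the control at E11.5 and -1.08 in the hypomorph over the wildtype at E14.5. That of *Hist4h4* was -0.65 at E11.5 and 0.89 at E14.5. The difference was not tested for either gene, since each value is 1 pooled estimate. Both were under 1 FPKM in 1 genotype at E14.5 and were listed there only through the other, so the listing minimum fixed that sign, and no value exceeds 2.30 FPKM.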

How the results depend on the processing

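No paired analysis was possible because each table gives 1 pooled value per gene and genotype, and leaving out a replicate was not run for the same reason. Alternatives that drop members lower the counts by construction. At E11.5 the median of 0.59 became 0.38 with a pseudocount of 1, 0.36 with the rescaled tables, 1.16 over members of 5 FPKM or more, and 0.80 over members with mostly unique windows, an alternative chosen after seeing the data. The 16 higher members became 9 with a pseudocount of 1 or a threshold of 2-fold 5 with a mean of 2 FPKM or more or a level of 5, and 8 at 1 FPKM or more in both groups, also chosen after seeing the data. The 2 lower became 0 under the first 4, 1 under the last and 5 at 1.2-fold. The summed log2 ratio of 0.87 became 0.63 when rescaled. At E14.5 the 6 higher members became 3 with a pseudocount of 1 or at 2-fold, 1 at a mean of 2 FPKM, 0 at a level of 5, 2 with mostly unique windows or at 1 FPKM in both, and 10 at 1.2-fold, and the 2 lower became 1 at a mean of 2 or 1 FPKM in both and 0 at a level of 5. The summed log2 ratio of 0.00 became 0.026 when rescaled, where H2B became 0.014, and 0.055 without the most abundant member. Without their own top member H2A became 0.42, H2B 0.30 and H4 -0.30. Between the controls the median of -0.33 became 0.036 with mostly unique windows and 0.036 at 1 FPKM in both, and -0.56 when centred on all genes. The 4 higher became 1 with a pseudocount of 1, at a level of 5 or when centred, 2 at a mean of 2, 0 at 2-fold and 8 at 1.2-fold, and the 7 lower became 2 at 1 FPKM in both, 3 at a mean of 2, 1 at a level of 5, 4 with mostly unique windows and 11 at 1.2-fold. The median of the decay list became 0.033 when rescaled. The cause was not tested. No direction of the E11.5 median, or of the FPKM sum and class sums, changed under these alternatives, but some differences nearly vanished. The H3 log2 ratio of 0.32 became 0.075 when rescaled, and that of H2A, 0.60, became 0.012 without its top member. As a share of all summed FPKM, H3 was lower in the CKO, at 19.9 ppm in control and 19.1 ppm in CKO ganglia. By that share H1, H2A, H2B and H4 were higher.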
